A study of Mus musculus with 8 samples.

Results

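The collagen and fibroblast matrix genes are 51 genes that code for the proteins fibroblasts secrete into the extracellular matrix and for the enzymes that process them. They were taken from a list of gene symbols, chosen with earlier results of these data known. All 51 were found among the 21951 protein-coding genes of the mouse annotation. DRIP-seq recovers R-loops, structures in which a nascent RNA pairs with its DNA template and leaves the other DNA strand single, by precipitating RNA:DNA hybrids with the S9.6 antibody. The 4 DRIP libraries analysed here came from *Rtel1*F/F;WT RNH1-GFP MEFs, mouse embryonic fibroblasts in which both *Rtel1* alleles are floxed and doxycycline induces WT RNaseH1 fused to GFP. RTEL1 is a helicase that unwinds G-quadruplexes and other DNA secondary structures, and RNase H1 degrades the RNA of RNA:DNA hybrids.

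*Rtel1*-proficient cells were infected with GFP adenovirus and left without doxycycline (GFP mock) or given it (GFP DOX). *Rtel1*-deficient cells received Cre-GFP adenovirus, again without doxycycline (Cre mock) or with it (Cre DOX). Doxycycline was added at 2 µg/ml at 48 h after infection, and cells were collected 48 h later. All 4 conditions therefore share the floxed alleles, the transgene and an adenoviral infection. Each condition is 1 library made from 3 pooled immunoprecipitations of 1 MEF line, so no difference between conditions has a replicate check and none was tested. The age and sex of the embryos were not given in the sources used here.

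Collagens assemble from 3 chains whose helical part is a repeat of Gly-X-Y triplets. Prolyl and lysyl hydroxylases modify the chains, a chaperone accompanies them through the secretory pathway, and proteases and lysyl oxidases trim and cross-link them outside the cell. Fibronectin, fibrillins and fibulins build the fibres around collagen, and highly transcribed, GC-rich genes are a known setting for R-loops. Peaks do not measure transcription, and expression of the matrix genes was not analysed here.

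A gene was counted with 1 kb added on each side, and it was given each peak that shared at least 1 bp with that span. A peak was placed at the start when it reached the 1 kb on either side of the annotated 5′ end, otherwise at the end when it reached that around the 3′ end, and otherwise in the body. MACS2 scores equal the −log10 q-value multiplied by 10, without decimals, so they rank peaks within a list but depend on sequencing depth, which is unknown here. The list of GFP mock held 87613 peaks, that of GFP DOX 60219, that of Cre mock 91097 and that of Cre DOX 105081. Where 4 values follow each other below, they are in this order. The narrowest peaks were 106, 107, 132 and 213 bp wide, so the shortest peak that a list holds also differed between conditions. *Rtel1* itself held 0, 0, 2 and 1 peaks, which does not measure its deletion.

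The sequences that carry the shared signal are shown first. Of 406 separate loci with a peak in the matrix genes, 23 in 14 genes had a peak in all 4 lists. Where they lie outside untranslated exons and the highest-scoring peaks of all lists had a stretch in common, it is given 5′ to 3′ on the strand of the gene's RNA (mm10), at most 300 bases of it, with runs of at least 3 G in capitals. They are 2 stretches of *Col1a1*, chr11:94943546-94943845 and chr11:94947261-94947339 on the + strand, 1 of *Col5a2*, chr1:45416187-45416259 on the − strand, and 1 of *Timp2*, chr11:118352247-118352546 on the − strand.
Col1a1, first stretch: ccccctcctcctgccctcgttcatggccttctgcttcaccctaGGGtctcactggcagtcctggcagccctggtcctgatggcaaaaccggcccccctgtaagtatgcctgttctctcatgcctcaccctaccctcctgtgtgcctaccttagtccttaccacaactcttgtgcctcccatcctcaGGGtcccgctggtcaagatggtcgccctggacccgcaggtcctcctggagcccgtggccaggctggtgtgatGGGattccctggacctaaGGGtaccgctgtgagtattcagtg
Col1a1, second stretch: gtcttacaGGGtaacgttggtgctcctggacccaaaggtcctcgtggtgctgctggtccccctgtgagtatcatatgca
Col5a2: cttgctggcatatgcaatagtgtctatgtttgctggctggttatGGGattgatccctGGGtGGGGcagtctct
Timp2: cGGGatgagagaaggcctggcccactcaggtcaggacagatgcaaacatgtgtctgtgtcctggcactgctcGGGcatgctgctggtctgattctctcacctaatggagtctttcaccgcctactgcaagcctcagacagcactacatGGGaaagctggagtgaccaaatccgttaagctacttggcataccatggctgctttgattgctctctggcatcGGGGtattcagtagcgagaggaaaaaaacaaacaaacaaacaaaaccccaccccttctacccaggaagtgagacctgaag

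Both *Col1a1* stretches cross coding exons of the helical domain, and those of *Col5a2* and *Timp2* lie in introns. The first *Col1a1* stretch was 61.0% GC and held more C than G on the strand shown, with 4 runs of G and 13 of C. The second was 55.7% GC with 1 run of G. The *Col5a2* stretch held 3 runs of G in 73 bases. A G-quadruplex was predicted by G4Hunter only in the *Timp2* stretch, on the strand opposite to the one shown.

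A second set shows loci that went with some conditions and not with others, and it was chosen after the values were seen. An intron of *P4ha2*, which codes for a prolyl hydroxylase subunit (chr11:54115979-54116085, + strand), and an intron of *Ltbp2*, a latent TGF-beta binding protein (chr12:84845016-84845106, − strand), had peaks in every list but Cre DOX. The *Col5a1* stretch (chr2:28018428-28018611, + strand) crosses a coding exon, and the *Col1a2* stretch (chr6:4510387-4510518, + strand) lies in an intron. Both were in Cre mock only.
P4ha2: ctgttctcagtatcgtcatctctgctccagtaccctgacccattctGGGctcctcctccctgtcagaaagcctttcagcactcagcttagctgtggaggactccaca
Ltbp2: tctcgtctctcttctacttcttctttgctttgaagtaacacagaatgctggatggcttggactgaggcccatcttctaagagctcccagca
Col5a1: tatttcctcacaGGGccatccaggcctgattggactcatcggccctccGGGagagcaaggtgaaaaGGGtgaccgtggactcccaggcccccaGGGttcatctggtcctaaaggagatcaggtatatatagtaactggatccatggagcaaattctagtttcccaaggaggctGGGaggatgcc
Col1a2: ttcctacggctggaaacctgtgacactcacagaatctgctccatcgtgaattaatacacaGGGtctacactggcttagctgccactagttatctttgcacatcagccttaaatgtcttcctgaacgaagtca

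The *P4ha2* stretch held 1 run of G and was 54.2% GC, and that of *Ltbp2* held none at 47.3% GC. The *Col5a1* stretch held 5 runs of G within 184 bases. No G-quadruplex was predicted on either strand of the 4 stretches.

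Across the matrix genes, R-loop peaks were most numerous in *Rtel1*-deficient cells without doxycycline. In GFP mock the genes held 119 peaks, against 126 with doxycycline, and in Cre mock they held 252, against 133 with doxycycline. Peaks covered 44838, 74048, 151011 and 78813 bp of the extended genes. Cre mock stood apart on both measures, and the other 3 lists held close numbers of peaks.

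The share of each list that fell in the matrix genes was 0.136%, 0.209%, 0.277% and 0.127%. Of the peaks in protein-coding genes, the matrix genes took 0.347%, 0.490%, 0.572% and 0.369%. Cre mock held 2.12 times as many matrix peaks as GFP mock, compared with 1.29 times over all protein-coding genes and 1.04 times over the whole list. Without *Col5a1*, *Ltbp1* and *Fbln2*, the genes with the most peaks, that ratio was 2.17. The covered length was 3.37 times that in GFP mock, against 1.76 times over protein-coding genes.

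Doxycycline went with different matrix values in the GFP and the Cre cells. GFP DOX held 1.06 times the matrix peaks of GFP mock, where protein-coding genes held 0.75 times and the list 0.687 times as many. Cre DOX held 0.528 times those of Cre mock, where protein-coding genes held 0.819 times and the list 1.15 times as many. Both doxycycline lists thus held nearly equal numbers of matrix peaks, at a ratio of 1.06 for Cre DOX over GFP DOX, although the Cre DOX list was 1.74 times as long.

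Repeats and thresholds bear on these ratios. Peaks that were mostly repeat-masked made up 48.1% of the protein-coding gene peaks of Cre DOX and 28.3% of those of Cre mock, and 17.3% and 11.9% of the matrix peaks. With such peaks left out, the ratio of Cre DOX to Cre mock was 0.495 in matrix genes and 0.592 in protein-coding genes and 0.623 over the whole list, which then fell as well. That of Cre mock to GFP mock was 2.11 and 1.51. The Cre DOX and GFP DOX lists then held 26079 and 22212 peaks, so most of the difference in their length lay in repeat-masked peaks. With only peaks of −log10 q of at least 2, GFP DOX held 0.538 times the matrix peaks of GFP mock, beside 0.546 times over protein-coding genes. Among top-decile peaks, GFP mock held 10 and Cre mock 12 in matrix genes, a ratio of 1.2 beside 1.23 over protein-coding genes. At −log10 q of at least 2 they held 52 and 98, a ratio of 1.88 beside 1.38, and with equal numbers of the highest-scoring peaks from each list the ratio was 1.81 beside 1.22.

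At least 1 peak was found in 32, 32, 43 and 36 matrix genes. These are 62.7% (exact 95% interval 48.1 to 75.9), 62.7% (48.1 to 75.9), 84.3% (71.4 to 93.0) and 70.6% (56.2 to 82.5) of the genes. The corresponding shares of all protein-coding genes were 55%, 46%, 60.4% and 54.1%. Such intervals cover counting error only. The matrix genes were chosen with earlier results of these data known, so an interval that excludes the background is no independent support. The share of matrix genes lay above that of protein-coding genes in each list, and the interval excluded the latter in GFP DOX, Cre mock and Cre DOX. Matrix genes are also longer, with a median length of 50.0 kb against 17.4 kb, and slightly richer in GC, with a median of 47.3% against 45.1%. Among genes of like length the excess did not hold throughout. Of the 22 matrix genes of 30 to 100 kb, 12, 11, 17 and 11 had a peak, below the 72.5%, 59.3%, 78.6% and 71.0% of protein-coding genes of that length in each list. Of the 13 of 10 to 30 kb, 8, 9, 12 and 10 had one, beside 53.6%, 43.6%, 61.0% and 53.1%, and of the 12 of 100 kb and over, 10, 10, 12 and 12, beside 92.3%, 80.0%, 92.1% and 90.2%.

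A peak in all 4 lists was found in 28 matrix genes (54.9%, 40.3 to 68.9), beside 33.5% of protein-coding genes. Only 5 had none in any list (9.80%, 3.26 to 21.4), beside 26.1%. They were *Col3a1*, the chain of type III collagen, *Postn* (periostin), *Tnc* (tenascin C), and *Dcn* and *Lum*, which code for the small leucine-rich proteoglycans decorin and lumican.

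**Figure D1:**
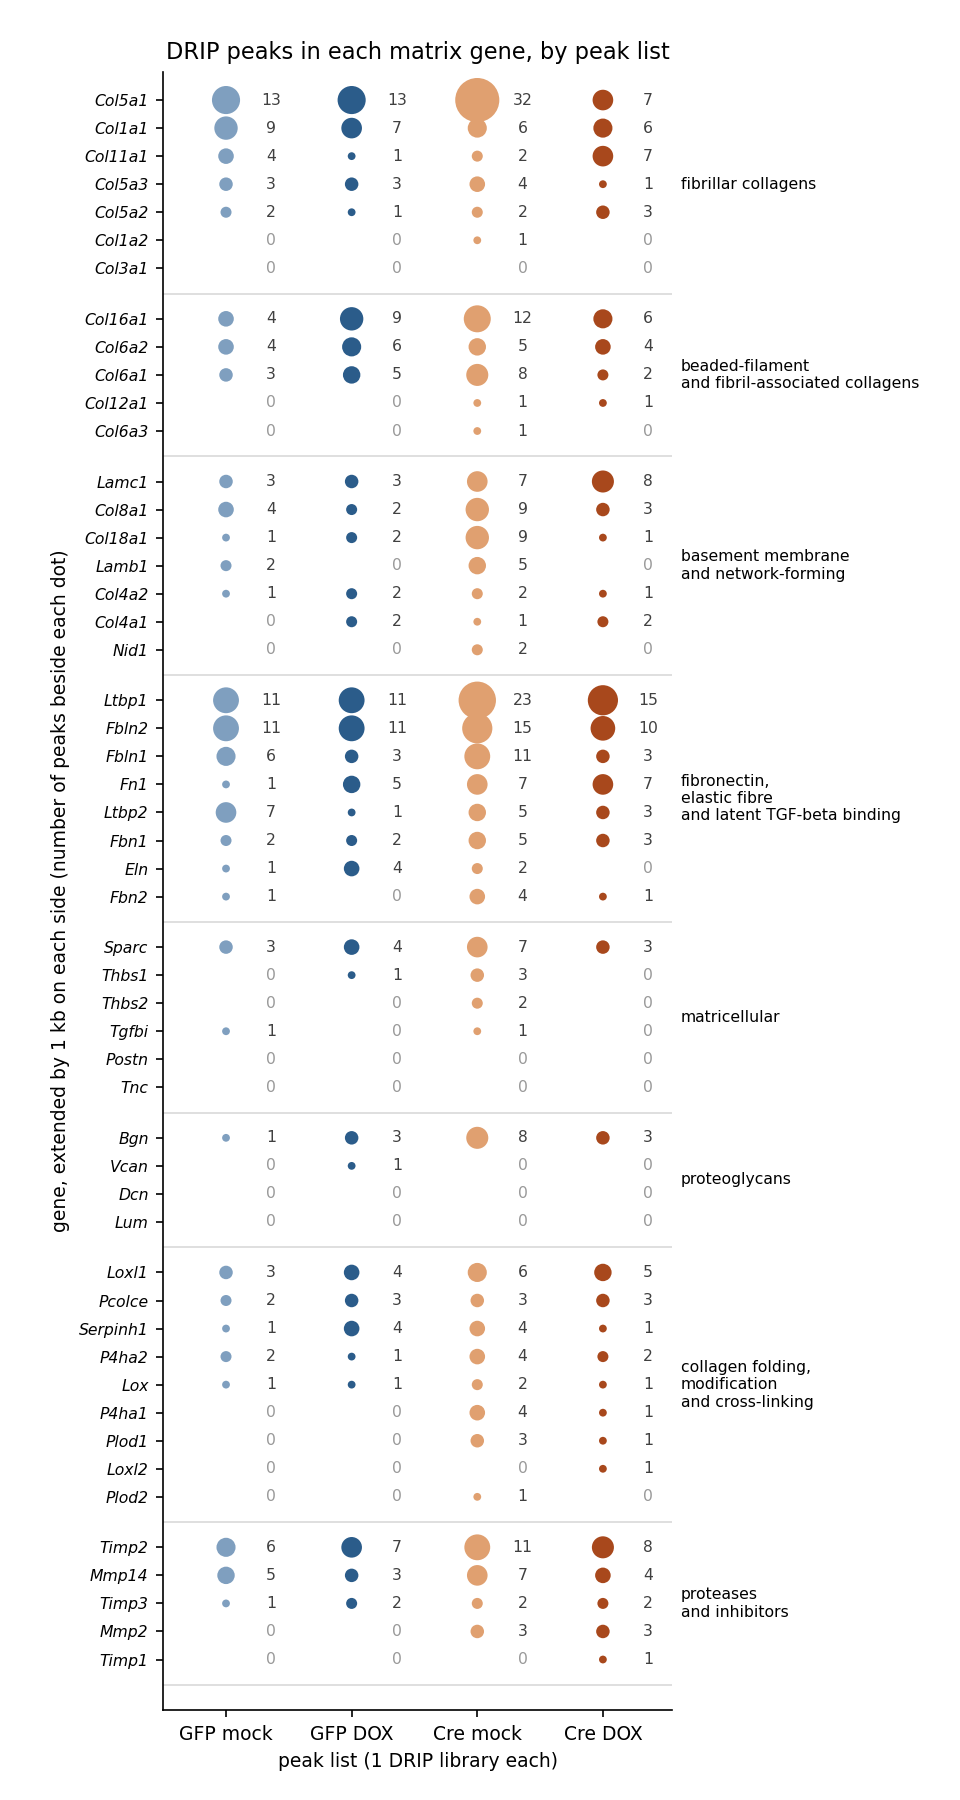
Number of DRIP peaks in each of the 51 matrix genes (rows, grouped by role) in the 4 peak lists (columns), with dot area in proportion to the number printed beside it. Cre mock has the most peaks in *Col5a1* (32) and *Ltbp1* (23), and 5 genes have none in any list.

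At gene starts, 16, 16, 21 and 14 matrix genes had a peak. The background was 23.3%, 19.6%, 28% and 20.1% of protein-coding genes, and the exact interval of the matrix genes included it in each list. The share was highest in Cre mock, at 41.2% (27.6 to 55.8), and 31.4% (19.1 to 45.9) in each GFP list. Start peaks in all 4 lists were found in *Col1a1*, *Col6a1*, *Lamc1*, *Lox*, *Mmp14* and *Timp2*, which are 6 genes (11.8%), beside 8.87% of protein-coding genes.

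Most matrix peaks lay in gene bodies. Body peaks were found in 28, 31, 41 and 29 matrix genes (54.9%, 60.8%, 80.4% and 56.9%), beside 42%, 34.3%, 48.1% and 42.5% of protein-coding genes. End peaks were found in 4, 7, 15 and 8 matrix genes (7.84%, 13.7%, 29.4% and 15.7%), beside 9.4%, 9.89%, 15.7% and 12%. The end share in Cre mock was 29.4% (17.5 to 43.8), above its background, and the intervals of the other 3 lists included theirs. *Col1a1*, *Sparc* and *Pcolce* had an end peak in all 4 lists, which are 3 genes (5.88%), beside 3.19%.

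**Figure D2:**
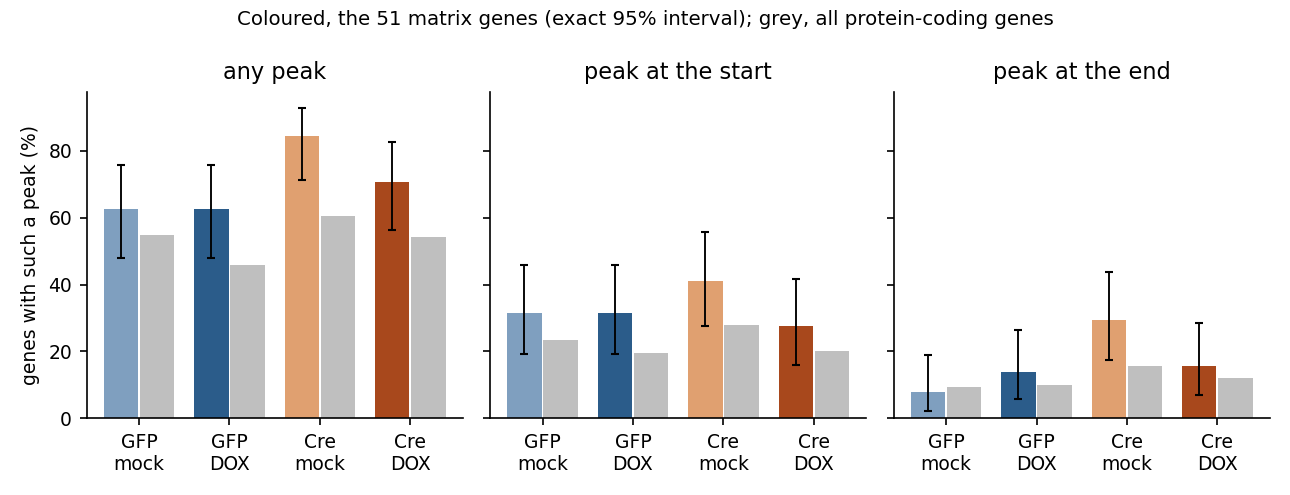
Percent of genes with any peak, with a start peak and with an end peak in each list. Coloured bars show the 51 matrix genes with exact 95% intervals and grey bars all 21951 protein-coding genes. The matrix share is highest in Cre mock in each panel (84.3%, 41.2% and 29.4%).

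Matrix peaks often lay on coding sequence. A coding exon was overlapped by 34.5%, 35.7%, 34.5% and 24.1% of them. Over protein-coding genes the shares were 18.7%, 23.4%, 23.5% and 17.2%. Predicted G-quadruplexes on either strand occurred in 48.7%, 58.3%, 45.6% and 43.6% of matrix peaks, beside 35.4%, 36.3%, 37.0% and 34.4% of protein-coding gene peaks. In GFP mock they were on the strand opposite to the RNA in 39.5% of the matrix peaks and on the RNA-like strand in 18.5%. The corresponding shares were 37.0% and 35.4% in GFP DOX, 28.6% and 30.6% in Cre mock, and 28.6% and 23.3% in Cre DOX. Over protein-coding genes both shares lay between 21.9% and 24.2% in every list. Matrix peaks also had a higher median GC content, 53.0%, 52.9%, 52.2% and 49.6%, beside 50%, 49.6%, 49.2% and 45.6%. Their median repeat-masked share was lower, 8.33%, 8.97%, 9.64% and 14.6%, beside 26.4%, 18.7%, 17.9% and 45.3%. Coding and G-quadruplex shares were not compared at matched GC content, masking or width.

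The peaks were mostly of middling score. Top-decile peaks, the strongest 10th of their own list, were found in 7, 6, 10 and 5 matrix genes. These are 13.7%, 11.8%, 19.6% and 9.80%, beside 13.1%, 9.92%, 16.7% and 9.91% of protein-coding genes. Of the 33 such peaks, 20 lay in introns, and 19 were 200 bp wide or less. The highest score, 151 with a 9.41-fold enrichment, belonged to a 180 bp peak of Cre mock on an untranslated exon at the end of *Col5a3* (chr9:20770214-20770393). The best *Col5a3* peak of the other lists scored 30 in GFP mock and 16 in either doxycycline list.

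Among the fibrillar collagens, the chains of the main collagen fibrils, the list held 7 genes with very different numbers of peaks. Together they held 31, 25, 47 and 24 peaks. *Col1a1*, the alpha1 chain of type I collagen (chr11:94936224-94953042, + strand), held 9, 7, 6 and 6 peaks. *Col1a2*, which codes for the partner chain, held 0, 0, 1 and 0. *Col3a1* held none.

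*Col1a1* had fewer peaks but a larger covered share in the 3 lists other than GFP mock. Peaks covered 17.8%, 52.3%, 72.1% and 38.4% of the extended gene. A larger covered share was found in 3.06%, 0.925%, 0.711% and 2.26% of protein-coding genes. Over the whole lists, peaks had mean widths of 414, 532, 522 and 847 bp. Between 3 and 8 kb from the start, GFP mock had 5 separate peaks of 149 to 923 bp, of which the narrowest lay in an intron and the others overlapped coding exons. Each of the other lists held a single peak there, of 4553, 4772 and 5189 bp. These 3 wide peaks all scored 32, and the best of the GFP mock peaks there scored 23. Near the start, the GFP mock peak was 106 bp wide and scored 30, while the peaks of GFP DOX and Cre mock were 1748 and 2634 bp wide. Those 2 scored 21 and 23. The Cre DOX peak near the start scored 10, at the 5.58 percentile of its list.

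*Col5a1*, the alpha1 chain of type V collagen, held 13, 13, 32 and 7 peaks. Its covered length was 3529, 5086, 16233 and 2586 bp. Cre mock was the high list and Cre DOX the low one, and the extra peaks were spread along the 153.1 kb of the gene. *Col11a1*, a chain of type XI collagen, went the other way with 4, 1, 2 and 7 peaks. *Col5a2* held 2, 1, 2 and 3 peaks and *Col5a3* 3, 3, 4 and 1.

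**Figure D3:**
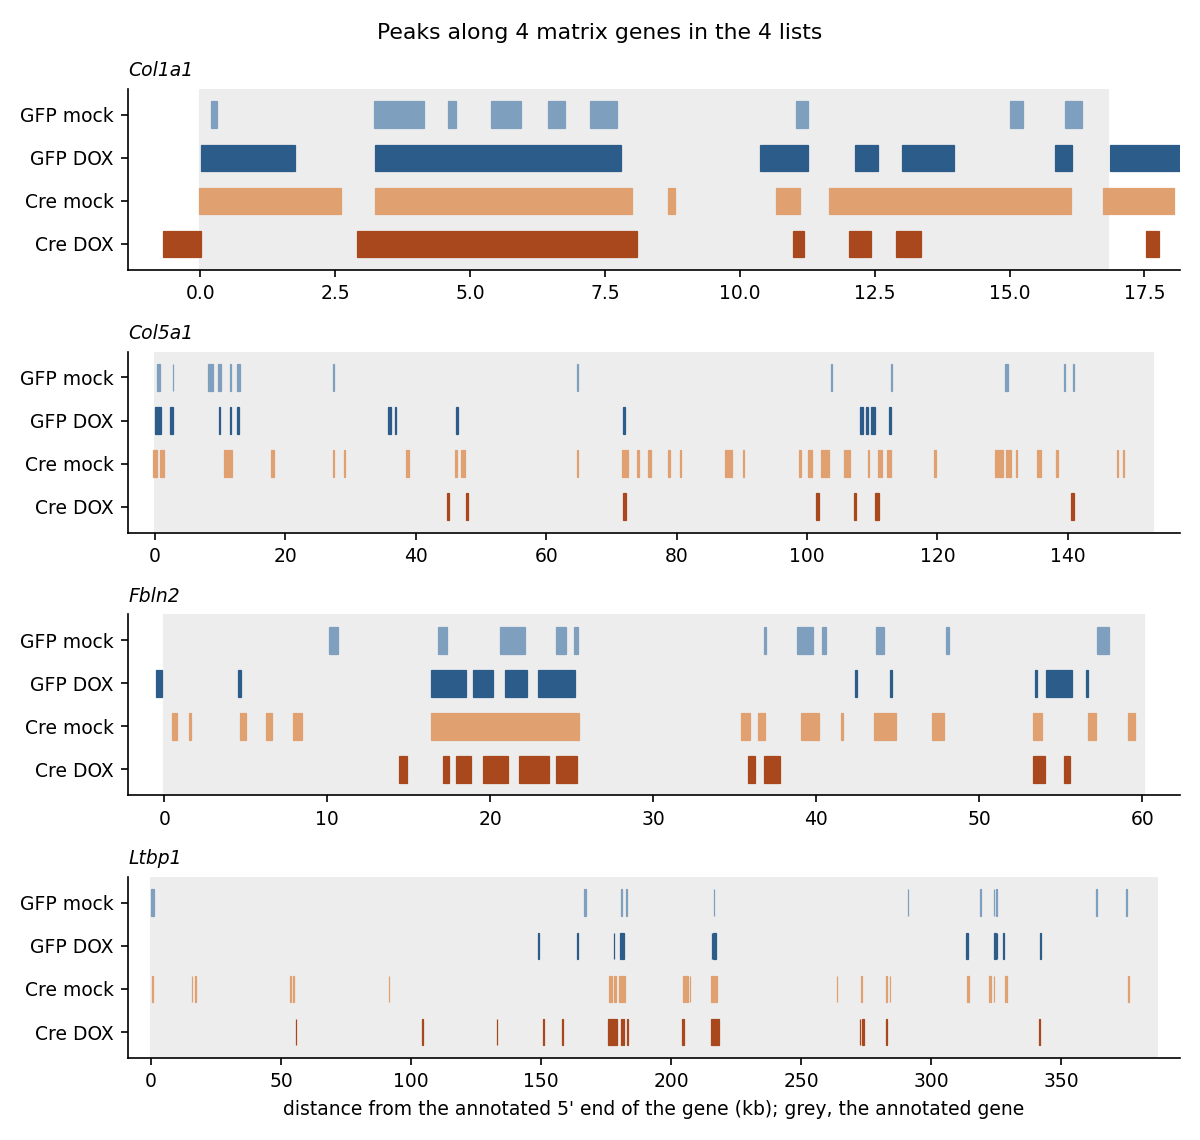
Peaks of the 4 lists (rows, coloured bars drawn to scale) along *Col1a1*, *Col5a1*, *Fbln2* and *Ltbp1*, by distance in kb from the annotated 5′ end, with the annotated gene in grey. A wide peak lies 3 to 8 kb into *Col1a1* in the 3 lists other than GFP mock, which has 5 narrower peaks there.

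The beaded-filament and fibril-associated collagens, 5 genes, held 11, 20, 27 and 13 peaks. *Col16a1*, a fibril-associated collagen chain, held 4, 9, 12 and 6, and its strongest peak, 1.38 kb from the start on an untranslated exon, scored 31, 33, 60 and 23. *Col6a1* and *Col6a2*, chains of the beaded filaments of type VI collagen that are neighbours on chromosome 10, held 3, 5, 8 and 2 peaks and 4, 6, 5 and 4 peaks. A start peak of *Col6a2* scored 54 in GFP mock. *Col6a3*, which codes for another of their chains, held 1 peak in Cre mock only, and *Col12a1* held 1 in each Cre list. The type VI chains, which assemble with each other, were therefore unequal in their peaks.

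The basement membrane and network-forming group of 7 genes held 11, 11, 35 and 15 peaks, with all 7 genes holding a peak in Cre mock. *Col18a1*, whose product includes endostatin, held 1, 2, 9 and 1, and *Col8a1*, a network-forming chain, 4, 2, 9 and 3. *Lamc1*, the laminin gamma1 chain, held 3, 3, 7 and 8, the only one of the group with more in Cre DOX than in each other list. *Lamb1*, the laminin beta1 chain, held 2, 0, 5 and 0, so both mock lists held peaks and both doxycycline lists none. *Nid1*, which codes for a laminin-binding protein, held 2 peaks in Cre mock only. *Col4a1* and *Col4a2*, divergently transcribed from neighbouring starts, held 0, 2, 1 and 2 and 1, 2, 2 and 1. They share 1 start peak of GFP DOX.

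Fibronectin, elastic fibre and latent TGF-beta binding genes, 8 in all, held the most peaks, 40, 37, 72 and 42. Per 10 kb of extended gene they held 0.345, 0.319, 0.621 and 0.363. The proteases and inhibitors held more per 10 kb, 0.758, 0.758, 1.45 and 1.14. *Ltbp1*, which tethers latent TGF-beta to the matrix and is the longest of the 51 genes at 386.9 kb, held 11, 11, 23 and 15. *Fbln2* (fibulin 2) held 11, 11, 15 and 10, and its broad locus 21 kb from the start scored 29, 31, 27 and 27. Of the loci in all lists it had the highest value for the lowest score percentile in any list, although *Col16a1* and *Col1a1* had loci with higher scores in 3 of the lists. In Cre mock the *Fbln2* locus was 1 peak of 9040 bp, the widest of all matrix peaks. *Fbln1* held 6, 3, 11 and 3.

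*Fn1* (fibronectin) held 1, 5, 7 and 7 peaks, low in GFP mock alone. *Ltbp2* held 7, 1, 5 and 3, high in both mock lists, and *Eln* (elastin) held 1, 4, 2 and 0. The single *Eln* peak of GFP mock was 115 bp wide and scored 45. *Fbn1* and *Fbn2*, which code for fibrillins, held 2, 2, 5 and 3 and 1, 0, 4 and 1. Cre mock exceeded GFP mock in all of these but *Ltbp2*.

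The 6 matricellular genes, secreted proteins that act on cells more than they bear load, held 4, 5, 13 and 3 peaks. Per 10 kb of extended gene these were 0.173, 0.216, 0.561 and 0.129. The basement membrane and network-forming group held 0.144, 0.144, 0.459 and 0.197 per 10 kb. *Sparc* (osteonectin) held 3, 4, 7 and 3 of the matricellular peaks, with an end peak on coding sequence that scored 23, 25, 28 and 29. *Thbs1* (thrombospondin 1) held 0, 1, 3 and 0 and *Thbs2* 0, 0, 2 and 0. *Tgfbi*, a secreted matrix adapter, held 1 peak in each mock list and none upon doxycycline. Among the 4 proteoglycans, *Bgn* (biglycan) held 1, 3, 8 and 3 peaks, covering 2.60%, 11.3%, 36.1% and 14.5% of the extended gene, and *Vcan* (versican) held 1 in GFP DOX only.

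Genes for collagen folding, modification and cross-linking, 9 in all, held 9, 13, 27 and 15 peaks. *P4ha2* held 2, 1, 4 and 2, and the peak of the intron shown above scored 36, 34 and 54 in the lists other than Cre DOX. *P4ha1*, its paralog, held 0, 0, 4 and 1. *Plod1* and *Plod2*, which code for lysyl hydroxylases, held 0, 0, 3 and 1 and 0, 0, 1 and 0. *Loxl1*, a lysyl oxidase-like enzyme, held 3, 4, 6 and 5, and *Lox* 1, 1, 2 and 1. *Loxl2* held 1 peak in Cre DOX only, just beyond its end and also within 1 kb of *R3hcc1*.

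*Serpinh1*, the collagen chaperone HSP47, held 1, 4, 4 and 1 peaks, which covered 5.56%, 43.3%, 37.3% and 24.3% of the extended gene. *Pcolce*, an enhancer of procollagen C-proteinase, held 2, 3, 3 and 3 and was covered over 7.70%, 34.7%, 42.0% and 10.2%. Both short genes were least covered in GFP mock, as *Col1a1* was.

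The 5 proteases and inhibitors held 12, 12, 23 and 18 peaks. *Mmp14*, a membrane-bound metalloproteinase, held 5, 3, 7 and 4, and *Mmp2*, a secreted one, held 0, 0, 3 and 3. Their inhibitor *Timp2* held 6, 7, 11 and 8, *Timp3* held 1, 2, 2 and 2, and *Timp1* held 1 in Cre DOX only, a peak that also overlapped *Syn1*. *Timp3* lies within *Syn3*, so a *Timp3* peak may be counted for either gene. In each of the 8 role groups Cre mock held more peaks than GFP mock and Cre DOX fewer than Cre mock.

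Gene by gene, Cre mock had more peaks than GFP mock in 38 matrix genes, beside 36.4% of protein-coding genes, and fewer in 3, *Col1a1*, *Col11a1* and *Ltbp2*, beside 19.8%. The 38 are 74.5% of the matrix genes (60.4 to 85.7), and the 3 are 5.88% (1.23 to 16.2). At −log10 q of at least 2, 25 had more and 5 fewer, in the top decile 9 had more and 7 fewer, and with equal numbers of the highest-scoring peaks 29 had more and 5 fewer. Protein-coding genes were not counted at these settings. The peak ratios there were, in this order, 1.88, 1.2 and 1.81, beside 1.38, 1.23 and 1.22 over protein-coding genes. Over all peaks, the difference in gene counts was also seen among genes of like length and GC. Of 13 matrix genes of 10 to 30 kb, 11 had more, beside 40% of protein-coding genes of that length, and of 12 of 100 kb and over 10 had more, beside 45.8%. Of 17 matrix genes with a GC content of 50% and over, 15 had more, beside 45.7%, and of 15 with 45 to 50%, 12 had more, beside 40.6%. Under 40% GC only 2 of 9 did, beside 20.8%.

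A peak in Cre mock and none in GFP mock was found in 11 matrix genes (21.6%, 11.3 to 35.3), beside 13.6% of protein-coding genes, a share inside that interval. They were *Col1a2*, *Col4a1*, *Col6a3*, *Col12a1*, *Thbs1*, *Thbs2*, *Mmp2*, *P4ha1*, *Plod1*, *Plod2* and *Nid1*. None showed the reverse (0 of 51, interval 0 to 6.98%), beside 8.22%. Several of these rest on few and short peaks. The only peaks of *Col1a2*, *Col6a3* and *Plod2* and both of *Thbs2* were 132 bp wide, the narrowest width in the Cre mock list, with scores of 31, 24, 15, and 12 and 14. The peak of *Col1a2* stood at the 88.1 percentile of scores in its list and that of *Col6a3* at the 74.2, while those of *Plod2* and *Thbs2* were below the list's median score of 19, and the *Nid1* peaks scored 13 and 11.

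Upon doxycycline in *Rtel1*-proficient cells, 17 matrix genes had more peaks (33.3%, 20.8 to 47.9), beside 17.6% of protein-coding genes. Fewer were found in 11 (21.6%, 11.3 to 35.3), beside 32.7%, which lies inside that interval. These counts turned at −log10 q of at least 2, to 6 more and 20 fewer, and in the top decile, to 3 more and 7 fewer, and were 23 and 7 with equal numbers of the highest-scoring peaks. Protein-coding genes were not counted at these settings. In the same order, peak ratios were 0.538, 0.6 and 1.58 in matrix genes, beside 0.546, 0.696 and 1.12 over protein-coding genes. *Col4a1*, *Thbs1* and *Vcan* (5.88%) had a peak in GFP DOX and none in GFP mock, beside 6.92%. *Fbn2*, *Tgfbi* and *Lamb1* (5.88%) showed the reverse, beside 15.9%. Of the 119 matrix peaks of GFP mock, 60.5% (51.1 to 69.3) overlapped no peak of GFP DOX, beside 69.8% over protein-coding genes. Of the GFP DOX peaks, 65.1% (56.1 to 73.4) overlapped none of GFP mock, beside 61.7% over protein-coding genes, a share inside that interval.

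Upon doxycycline in *Rtel1*-deficient cells, 33 matrix genes had fewer peaks (64.7%, 50.1 to 77.6), beside 36% of protein-coding genes. More were found in 6 (11.8%, 4.44 to 23.9), beside 19.9%, which lies inside that interval. At −log10 q of at least 2, 26 had fewer and 3 more, in the top decile 9 and 4, and with equal numbers of the highest-scoring peaks 30 and 4. Protein-coding genes were not counted at these settings. There the peak ratios, in the same order, were 0.378, 0.417 and 0.407, beside 0.658, 0.661 and 0.652 over protein-coding genes. The 6 with more over all peaks were *Col4a1*, *Col5a2*, *Col11a1*, *Lamc1*, *Loxl2* and *Timp1*. A peak in Cre mock and none in Cre DOX was found in *Col1a2*, *Col6a3*, *Eln*, *Thbs1*, *Thbs2*, *Tgfbi*, *Plod2*, *Lamb1* and *Nid1*, which are 9 genes (17.6%, 8.40 to 30.9), beside 13.9%. *Loxl2* and *Timp1* (3.92%) showed the reverse, beside 7.62%. The narrowest Cre DOX peak was 213 bp wide. All Cre mock peaks of *Col1a2*, *Col6a3*, *Plod2* and *Thbs2* were 132 bp wide and that of *Tgfbi* 159 bp. *Eln*, *Thbs1*, *Lamb1* and *Nid1* each held a Cre mock peak wider than 213 bp. Of the 252 matrix peaks of Cre mock, 76.6% (70.9 to 81.7) overlapped no Cre DOX peak, beside 65.3% over protein-coding genes and 51.3% over the whole list. That interval covers counting error alone, and the shares were not compared at matched GC content. Within the 17 matrix genes of 50% GC and over, 15 had fewer peaks and none more, beside 51.5% and 14.4% of protein-coding genes of that GC content. Under 40% GC the order was the other way, with 1 of 9 fewer and 2 more, beside 13.9% and 28.3%. Of the 12 genes of 100 kb and over, 7 had fewer and 4 more, beside 45.1% and 38.1%.

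Between the doxycycline lists, 19 matrix genes (37.3%, 24.1 to 51.9) had more peaks in Cre DOX than in GFP DOX, beside 33.2% of protein-coding genes. In 14 (27.5%, 15.9 to 41.7) there were fewer, beside 16.9%, and both intervals included the protein-coding share. A peak in Cre DOX and none in GFP DOX was found in 7 genes (13.7%), *Col12a1*, *Fbn2*, *Loxl2*, *Mmp2*, *Timp1*, *P4ha1* and *Plod1*, beside 15.2%. The reverse was found in *Eln*, *Thbs1* and *Vcan* (5.88%), beside 7.02%. The 4 comparisons share lists, so their counts are not independent of each other.

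**Figure D4:**
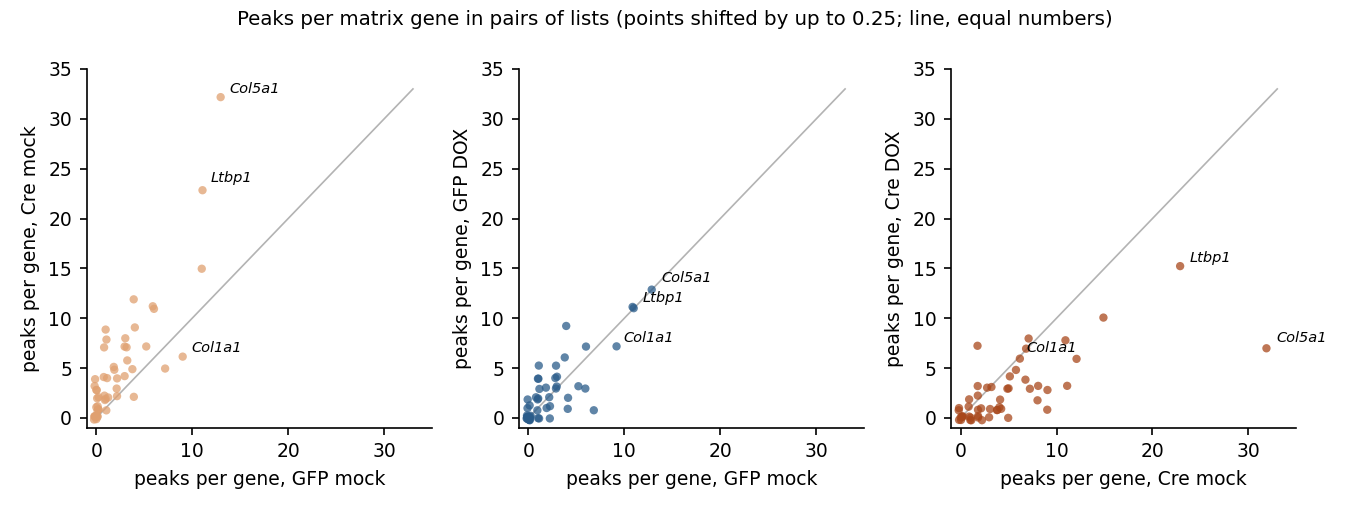
Peaks per matrix gene in Cre mock against GFP mock, GFP DOX against GFP mock, and Cre DOX against Cre mock, 1 point per gene, shifted by up to 0.25 to separate ties, with a line of equal numbers. In the left panel 38 genes lie above the line and 3 below, and in the right panel 6 lie above and 33 below.

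Of the 406 loci, 293 were in 1 list alone, and this share of 72.2% was close to the 69.9% over protein-coding genes. Cre mock alone held 145 of them, or 35.7% beside 25.1%, and Cre DOX alone 61, or 15.0% beside 19%. GFP mock alone held 44, or 10.8% beside 16.9%, and GFP DOX alone 43, or 10.6% beside 8.85%. Of the Cre mock peaks 79.0% (73.4 to 83.8) overlapped no GFP mock peak, beside 71.0% over protein-coding genes. In the other direction 48.7% (39.5 to 58.1) of the GFP mock peaks were absent from Cre mock, beside 59.8%. Most Cre mock peaks of the matrix genes were thus at loci without one in GFP mock. Loci shared by all lists lay in *Fbln2*, *Col16a1*, *Col1a1*, *Sparc*, *Ltbp1*, *Mmp14*, *Col6a2*, *Serpinh1*, *Timp2*, *Col5a2*, *Fbn1*, *Pcolce*, *Lamc1* and *Fbln1*, in the order of their best locus by its lowest score percentile in any list, which ran from 81.7 for *Fbln2* to 15.7 for *Fbln1*.

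The density of peaks went with base composition. Over the 51 genes, Spearman's rho between peaks per 10 kb, summed over the lists, and GC content was 0.76, and with the density of sites cut by the 5 restriction enzymes used to fragment the DNA it was −0.76. GC content and cut sites were themselves correlated at −0.91, so they cannot be told apart here. Over all protein-coding genes the corresponding values were 0.48 and −0.43. The genes without a peak had a median GC content of 37.7% (35.8 to 43.2) and 23.9 cut sites per 10 kb, beside 50.1% and 13.4 in those with a peak in all lists. The number of peaks hardly followed gene length in the matrix genes (rho 0.15), whereas it did over protein-coding genes (0.55). Genes are not independent replicates, and the points share the same 4 libraries.

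**Figure D5:**
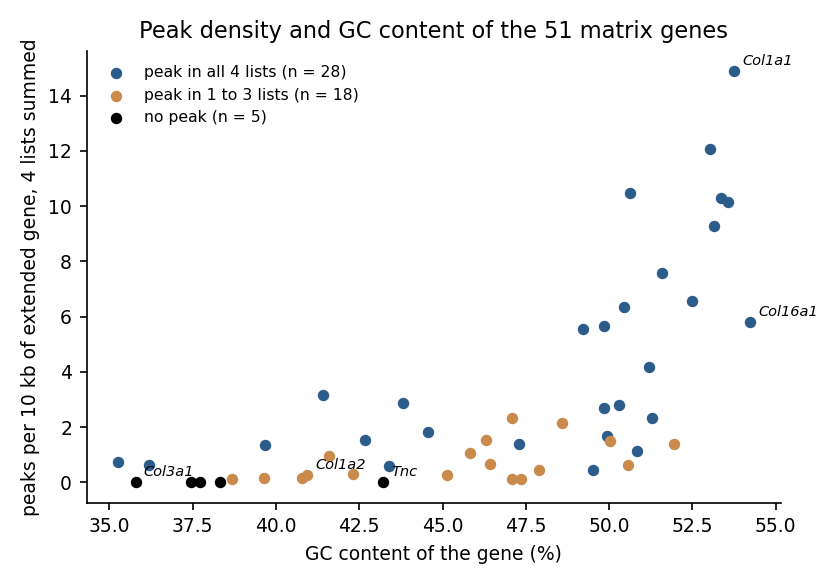
Peaks per 10 kb of extended gene, summed over the 4 lists, against GC content for the 51 matrix genes, 1 point per gene, coloured by the number of lists with a peak. The genes without a peak lie between 35.8% and 43.2% GC, and *Col1a1* has the highest density.

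Other genes of the same pathways served as a comparison. Among 75 further matrix and collagen biosynthesis genes, 53, 48, 60 and 55 held a peak, with 259, 181, 273 and 215 peaks, so that Cre mock held 1.05 times the peaks of GFP mock. More peaks in Cre mock than in GFP mock were found in 33 of them and fewer in 22. Cartilage, bone, tooth and epithelial matrix genes, 20 in all and not typical of fibroblasts, held 27, 20, 42 and 25 peaks, a ratio of 1.56. Mesenchymal or fibroblast genes outside the 51 held 23, 30, 52 and 35 peaks over 12 genes, a ratio of 2.26. Cre mock had more than GFP mock in 7 of them, such as *Twist2* and *Prrx1*, and fewer in 3, the receptor genes *Pdgfra* and *Pdgfrb* and the surface marker *Thy1*. *Cd44*, a receptor for hyaluronan, held 2, 5, 13 and 8. Markers of other cell types also held peaks. Over 6 epithelial genes they numbered 7, 3, 4 and 2, over 4 endothelial genes 9, 3, 4 and 7, over 4 blood genes 5, 4, 3 and 4 and over 4 neural genes 2, 5, 5 and 0. DRIP peaks do not report expression, so these counts do not check the identity of the cells.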

How the data were processed

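The 51 genes and the lists of comparison genes were chosen with earlier results of these data known. The authors digested genomic DNA with restriction enzymes, precipitated it with S9.6, pooled 3 immunoprecipitations per condition and sequenced single-end libraries. They processed the reads with nf-core/chipseq (Trim Galore, BWA, mm10) and called peaks per library with MACS2, as the submitters' notes also state. The deposited lists are in broadPeak format although the stated command has the narrow-peak option, and use of the 4 input libraries as control is not given in the sources used here. Inputs were not analysed here. Each deposited peak carries a score, a fold enrichment (a linear ratio) and −log10 p and q values. The score equalled 10 times the −log10 q, rounded down, in 99.9962% of peaks. No values are normalised between libraries.

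All peaks were used here, whereas the authors kept top-decile peaks. Genes came from GENCODE M21 (the authors used UCSC genes) and sequence from GRCm38.p6. A peak was called absent from a list that had no peak over at least 1 bp of it. G-quadruplexes were predicted with G4Hunter (window 25, score 1.5). Shares have exact (Clopper-Pearson) 95% intervals, and no test was made with 1 library per condition. Named genes were those with loci in all lists, top-decile peaks, the highest scores of their group, peaks in few lists, no peak, or the most peaks. Alternatives were a top-decile threshold, −log10 q of at least 2, equal list lengths, no extension of genes, peak midpoints, at most 50% repeat-masked sequence, peaks over no other gene and any transcript start. Scripts used Python 3.11.15, pandas 2.3.3, SciPy 1.17.1 and pysam 0.24.0, and were tested on simulated data.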

Additional observations from a re-analysis of the deposited data

Results flagged for a closer look

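Doxycycline went with opposite directions in the 2 genotypes for 4 values, none of which was tested because each condition is 1 library. The number of matrix peaks was 1.06 times the mock value in *Rtel1*-proficient cells and 0.528 times in *Rtel1*-deficient cells, beside 0.75 and 0.819 times over protein-coding genes. The length covered by peaks was 1.65 and 0.522 times the mock value, beside 1.024 and 1.082. The number of matrix genes with a body peak was 1.11 and 0.707 times the mock value, beside 0.816 and 0.884. That with an end peak was 1.75 and 0.533 times, from 4 to 7 and from 15 to 8 genes, and over protein-coding genes it also went opposite ways, at 1.05 and 0.762. The direction of the peak number in *Rtel1*-proficient cells turned with stricter thresholds, to 0.538 at −log10 q of at least 2 and 0.6 in the top decile. Over protein-coding genes the ratios there were 0.546 and 0.696. With equal numbers of the highest-scoring peaks the ratio was 1.58, beside 1.12 over protein-coding genes.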

How the results depend on the processing

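No paired analysis was possible because each condition has 1 library. Of 151 values recomputed, 108 kept within 1.5 times the stated count or ratio, or inside the stated interval, 41 moved and 2 reversed. The ratios of peaks were added after seeing the data. With the top decile alone, 7, 6, 10 and 5 genes had a peak (lists in the order above), 2, 0, 0 and 1 a start peak and 0 a peak in all lists. Absence was then 80.0% (GFP mock from GFP DOX), 100.0% (Cre mock from Cre DOX) and 91.7% (Cre mock from GFP mock), on 10 GFP mock and 12 Cre mock peaks. Under the alternatives, absence was not computed over protein-coding genes. The top-decile Cre mock to GFP mock ratio was 1.2, beside 1.23 over protein-coding genes. That of GFP DOX to GFP mock was 0.6, reversed, beside 0.696. With −log10 q of at least 2, 16 (GFP DOX) and 20 (Cre DOX) genes had a peak, 9, 8, 8 and 4 a start peak and 9 a peak in all lists. Absence from the doxycycline lists was 75% and 90.8%, and the GFP DOX ratio was 0.538, reversed, beside 0.546 over protein-coding genes. With equal list lengths, 18 genes had a peak in all lists, 4 a start peak in Cre DOX, and 84.1% of Cre mock peaks were absent from Cre DOX and 73.1% from GFP mock. Start peaks were in 8 genes of GFP DOX over no other gene, and in 22 of Cre DOX at any transcript start. The Cre mock to GFP mock ratio was 1.81 to 2.16 under the other alternatives and the Cre DOX to Cre mock ratio 0.378 to 0.526 under all. The cause of these shifts was not tested. Depth is unknown, so a peak missing from a list may lie below its detection limit.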
